A study of Saccharomyces cerevisiae with 6 samples.

Results

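The 10 genes described here encode amino acid permeases of the yeast plasma membrane: AGP1, GNP1, BAP2, BAP3, TAT1, TAT2, DIP5, HIP1, LYP1 and CAN1. They were taken by name from the gene identifiers of the arrays, and all 10 were found, among 6256 genes, each with 1 probe printed in 2 spots. RNA of myo1Δ strains, which lack the heavy chain of the only conventional myosin II of budding yeast and so the motor of the cytokinetic ring, was hybridized against RNA of wild type strains on 6 Agilent 2-colour oligonucleotide arrays. Arrays 1 to 3 compared YJR13 (MATa trp1 ura3 leu2-3 his3delta1 cyhR, myo1delta::HIS5+) with YJR12 (MATα, with these trp1, ura3, leu2-3, his3delta1 and cyhR markers and MYO1), both haploid segregants of YJR6 × BY4741. Arrays 4 to 6 compared YJR6 (MATα, with trp1, ura3, leu2-3 and his3delta1 alleles, cyhR and myo1delta::HIS5+) with its parent MGD353-46D (MATα, with the same markers and MYO1). Every strain therefore carried leu2, trp1, ura3 and his3 mutations and only the mutants carried HIS5+. All strains are also listed as ADE+, with ARG+ for YJR12 and ARG, without a sign, for the others. Each group was 1 strain, sampled in triplicate cultures grown overnight at 26 °C to an OD600 of 0.5 to 0.8 in complete synthetic medium or in histidine dropout medium. The labels give histidine dropout medium for YJR6, in which the his3 parent could not have grown, and the study's text can be read as dropout medium for the mutants and complete medium for the wild types. In that case medium and genotype cannot be told apart. This bears on a family whose genes are regulated by external amino acids.

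Permeases of this family import amino acids with protons, and they divide the substrates among themselves. AGP1 and GNP1 encode permeases of broad range, BAP2 and BAP3 carry mainly branched-chain amino acids, TAT1 and TAT2 carry aromatic ones, DIP5 carries glutamate and aspartate, HIP1 histidine, LYP1 lysine and CAN1 arginine. Several of these genes are induced when the plasma membrane sensor complex of Ssy1, Ptr3 and Ssy5 detects amino acids outside the cell and releases the transcription factors Stp1 and Stp2 by proteolysis. In strains with leu2 and trp1 mutations, growth depends on the uptake of leucine and tryptophan.

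The labels were checked first with the deleted gene. MYO1 was lower in the mutant on every array, at -2.11, -1.45 and -1.69 (log2) for YJR13 over YJR12 and at -3.53, -1.46 and -2.77 for YJR6 over MGD353-46D (mean -2.17, adjusted p = 0.00466 by limma with Benjamini-Hochberg adjustment). Of the mating type markers, all 4 MATα genes were lower on all 3 arrays of the YJR13 pair and 5 of 6 MATa genes were higher on all 3. In the YJR6 pair, whose strains share a mating type, the log2 ratios of the MATα genes ranged over the arrays between -2.18 and 3.89, against 0.0044 to 0.843 for the MATa genes. There, 0 of 4 MATα genes were lower on all 3 arrays. All 6 MATa genes were higher on all 3 arrays of this pair too, so the MATa count did not separate the pairs. Array 3 stood apart from the rest: over all genes its correlation with each remaining array was r = 0.144 to 0.477, against 0.546 to 0.770 between any 2 of the remaining 5. Values below are log2 ratios of myo1Δ over wild type after background correction and loess normalization within the array, with signs turned where the dyes were swapped (mutant in Cy3 on arrays 2 and 5, in Cy5 on the other 4). In whole cultures, fewer cells that express a gene and less of its RNA per cell cannot be told apart.

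In the fit over 6 arrays the family moved in both directions. BAP2 was up regulated, AGP1, TAT1 and DIP5 were down regulated, and GNP1, BAP3, TAT2, HIP1, LYP1 and CAN1 did not pass an adjusted p of 0.05. Thus 1 of 10 permeases was called higher, against 14.2% of all genes, and 3 of 10 were called lower, against 12.9%. None passed an adjusted p of 0.01, which 7.43% of all genes did (limma). At an unadjusted p of 0.01, 3 of 10 passed (AGP1, BAP2 and DIP5), against 24.3% of all genes. The study's methods set a cutoff of 0.01, name a false discovery rate test besides it, and do not say whether the p of the cutoff was adjusted. The median log2 ratio of the 10 genes was -0.21, against 7.85e-04 over all genes. Only AGP1, BAP2 and DIP5 had the same sign on all 6 arrays, 3 of 10 genes, against 28.1% of all genes measured on every array.

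**Figure D1:**
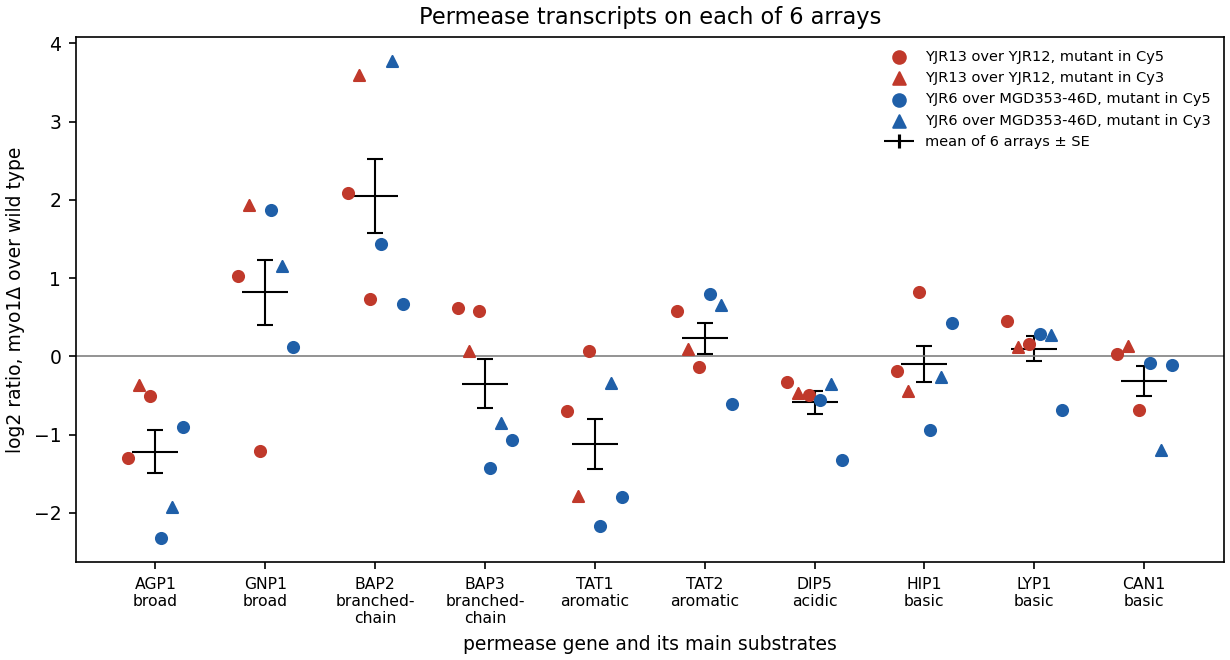
Log2 ratio of myo1Δ over wild type (vertical axis) of the 10 permease genes, labelled with their main substrates. Points are single arrays in the order 1 to 6 from left to right within a gene, red for YJR13 over YJR12 and blue for YJR6 over MGD353-46D, circles with the mutant in Cy5 and triangles with the mutant in Cy3. Black lines are the mean of 6 arrays ± SE of limma. All 6 points of BAP2 lie above 0 with both triangles on top (3.59 and 3.78), all 6 of AGP1 and of DIP5 lie below 0, and the 2 strain pairs of BAP3 lie on opposite sides of 0.

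Of the permeases for branched-chain amino acids, BAP2 was higher in the mutant on every array. Its log2 ratio was 2.09, 3.59 and 0.74 in YJR13 over YJR12 and 1.44, 3.78 and 0.67 in YJR6 over MGD353-46D, a mean of 2.05 ± 0.47 (SE, n = 6), or 4.15-fold (adjusted p = 0.0216, limma). Both strain pairs covered nearly the same range, and arrays 3 and 6 held the low values of each pair. The spots of BAP2 gave 4.37, 14.2 and 3.64 times their local background for YJR13 and 1.42, 1.62 and 1.42 times for YJR12. They gave 6.75, 18.2 and 2.49 times background for YJR6 and 5.34, 1.65 and 3.39 times for MGD353-46D. Relative to local background, the mutant channel was thus the brighter one on 5 of 6 arrays and the wild type channel on array 6, where the normalized ratio was positive. On array 6 the median spot of all genes was also brighter in the wild type channel (2.31 against 1.54 times background). That median was higher in the wild type channel on array 4 too, and in the mutant channel on arrays 1, 2, 3 and 5. In the YJR12 channel, BAP2 stood little above its background.

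BAP2 also moved with the dye. Its log2 ratio averaged 1.23 on the 4 arrays with the mutant in Cy5 and 3.69 on the 2 arrays with the mutant in Cy3. The dye effect had an unadjusted p of 0.00137 and an adjusted p of 0.329 (limma, over all genes). BAP2 was the only permease with a dye effect at an unadjusted p of 0.05, 1 of 10, against 9.67% of all genes. With the dye in the model the log2 ratio of BAP2 was 2.46 ± 0.22 (SE, adjusted p = 0.0054). Arrays were grouped into slides 1, 2 and 3 by the scan names in the file headers, as arrays 1 and 2, 3 and 4, and 5 and 6. Slide 1 thus held only the YJR13 pair and slide 3 only the YJR6 pair, so slide means are not separate from the strain pair. BAP2 averaged 2.84, 1.09 and 2.22 on slides 1, 2 and 3. The call of BAP2 was lost without array 1, 2 or 4, with adjusted p of 0.0503 to 0.0604 and log2 ratios of 1.74 to 2.17.

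BAP3, whose product shares branched-chain substrates with that of BAP2, followed the strain pair. Its log2 ratio was 0.61, 0.07 and 0.58 in YJR13 over YJR12, and -1.43, -0.86 and -1.07 in YJR6 over MGD353-46D. No value of one pair reached into the range of the other, and the mean over 6 arrays, -0.35 ± 0.31 (SE), did not pass the test (adjusted p = 0.442). Within the YJR6 pair BAP3 was down regulated (-1.12 ± 0.18, SE, n = 3, adjusted p = 0.0192, limma), and in the YJR13 pair it was not called (0.42 ± 0.18, adjusted p = 0.245). These SE come from a fit in which both pairs share 1 estimate of the spread. The difference of the pairs, YJR13 minus YJR6, was 1.54 ± 0.25 (SE), with an unadjusted p of 8.14e-04 and an adjusted p of 0.554, so that it was not called. Of all genes measured on every array, 1.78% had opposite signs in the pairs on all 6 arrays as BAP3 did. On the scale of equalized channel levels, the low value of BAP3 lay in 1 strain: its log2 intensity was 7.92 to 8.29 in YJR6, against 8.99 to 9.65 in MGD353-46D, 9.49 to 9.94 in YJR13 and 8.96 to 9.42 in YJR12. The ranges of MGD353-46D and YJR12 overlapped, while that of YJR6 lay below the other 3. Signal over local background did not single out YJR6. It was 2.86, 3.33 and 1.86 times in YJR6 and 11.8, 3.52 and 6.63 times in MGD353-46D. In YJR12 it was 2.86, 3.69 and 2.36 times, which overlapped YJR6, and in YJR13 it was 3.93, 4.87 and 6.98 times. The call in the YJR6 pair was lost without array 4 (-0.96, adjusted p = 0.0882) or array 6 (-1.15, adjusted p = 0.0696).

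**Figure D2:**
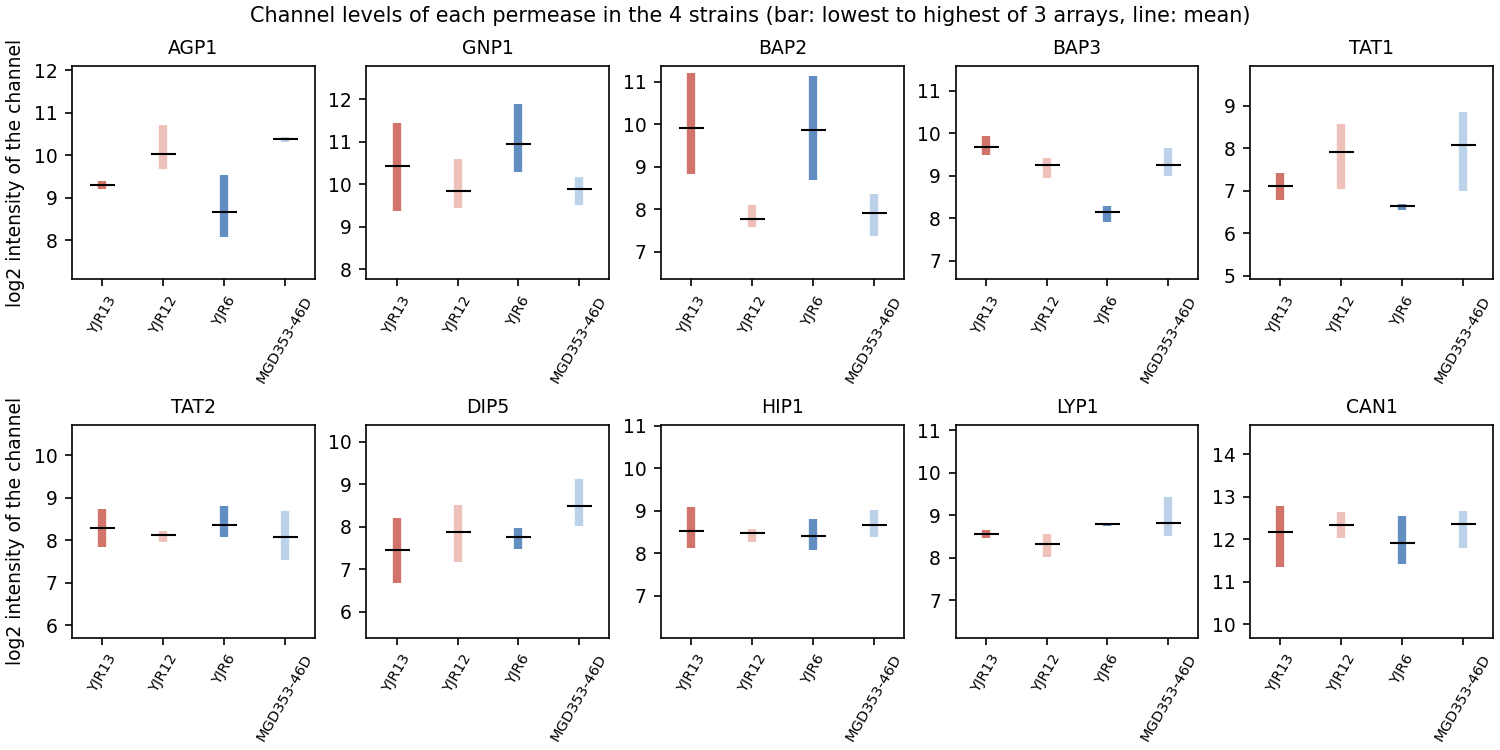
Log2 intensity of the channel of each strain (vertical axis) for each permease, after loess and equalization of average intensity between arrays, with mutants left of their wild types. Bars run from the lowest to the highest of 3 arrays and the black line is their mean. Each panel spans the same number of log2 units but has its own centre, since intensities of different probes are not comparable. BAP2 is above its wild type in both mutants, and on this scale BAP3 is low in YJR6 alone (7.92 to 8.29).

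The pair of broad-range permeases split in sign. AGP1, which is known for its induction by external amino acids, fell on every array, at log2 ratios of -1.30, -0.36 and -0.50 in YJR13 over YJR12 and of -2.32, -1.92 and -0.90 in YJR6 over MGD353-46D. The mean was -1.22 ± 0.28 (SE, n = 6), a 2.33-fold decrease (adjusted p = 0.0209, limma). The ranges of the pairs overlapped through array 1, and their difference was not called (0.99 ± 0.44, SE, adjusted p = 0.698). AGP1 was at 3.36, 4.35 and 4.45 times background in YJR13 against 8.2, 4.28 and 2.86 times in YJR12, and at 2.56, 3.3 and 3.45 times in YJR6 against 21.8, 7.17 and 20.9 times in MGD353-46D. The wild type channel was the brighter one on 4 of 6 arrays, arrays 2 and 3 being the exceptions on this scale. On arrays 2 and 3 the median spot of all genes was also brighter in the mutant channel (1.82 against 1.44 and 1.74 against 1.22 times background). Its log2 level was 8.07 to 9.52 in YJR6 and 9.20 to 9.40 in YJR13, against 10.3 to 10.4 in MGD353-46D and 9.69 to 10.7 in YJR12, so neither mutant overlapped either wild type. AGP1 lost its call without array 1 (adjusted p = 0.0537) or array 5 (adjusted p = 0.0503), and averaged -0.83, -1.41 and -1.41 on slides 1, 2 and 3.

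GNP1, the glutamine permease of this pair, had log2 ratios of 1.03, 1.94 and -1.20 in YJR13 over YJR12 and of 1.87, 1.16 and 0.12 in YJR6 over MGD353-46D. Array 3 was the only one on which it was lower in the mutant. The mean of 0.82 ± 0.41 (SE, n = 6) did not pass the test (adjusted p = 0.181). Without array 3 the mean was 1.22 and the call was made (adjusted p = 0.022, limma), so this gene rested on the array that stood apart. The log2 ratio of GNP1 exceeded that of AGP1 by 2.04 ± 1.70 (SD over 6 arrays), with a positive difference on 5 of 6 arrays.

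TAT1, a permease for tyrosine and tryptophan that also takes branched-chain amino acids, had log2 ratios of -0.69, -1.78 and 0.07 in YJR13 over YJR12, and of -2.16, -0.34 and -1.80 in YJR6 over MGD353-46D. It fell on 5 of 6 arrays, to a mean of -1.12 ± 0.32 (SE), or 2.17-fold (adjusted p = 0.0412, limma), and the exception was again array 3. TAT1 was dim: its spots reached 1.22 to 1.62 times background in the mutants and 1.17 to 6.18 times in the wild types, so that its ratios leaned on the background correction. Without background correction it was -0.66 and not called (adjusted p = 0.0753). From the second of its 2 spots on its own TAT1 was -1.09 and not called (adjusted p = 0.063, limma). The call was kept without array 3 or 5 and lost without any other array, with adjusted p of up to 0.114. TAT1 averaged -1.24, -1.05 and -1.07 on slides 1, 2 and 3.

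TAT1 and BAP2 are neighbours on chromosome II, and they moved in opposite directions. The log2 ratio of BAP2 exceeded that of TAT1 on all 6 arrays, by 3.17 ± 1.60 (SD), averaging 2.94 for YJR13 and 3.40 for YJR6. BAP2 exceeded BAP3 on all 6 arrays as well, by 2.40 ± 1.60 (SD), although on array 3 the difference was 0.16. TIP1, the cell wall protein gene on the other side of BAP2, was at 0.18 ± 0.20 (SE, adjusted p = 0.562). The probe sequences were not analysed here, so whether the probes of related permeases also bind each other's RNA was not tested.

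TAT2, the tryptophan permease of higher affinity, did not pass the test. Its log2 ratios were 0.58, 0.09 and -0.13 in YJR13 over YJR12 and 0.80, 0.66 and -0.61 in YJR6 over MGD353-46D, with arrays 3 and 6 below 0 and a mean of 0.23 ± 0.20 (SE, adjusted p = 0.43). It exceeded TAT1 on 5 of 6 arrays, by 1.35 ± 1.04 (SD). One of the 2 spots of TAT2 was marked poor on array 3 and left out, the only such value among 120 spot values of the family.

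DIP5, the permease for acidic amino acids, was down regulated, at a mean log2 ratio of -0.59 ± 0.15 (SE, n = 6, adjusted p = 0.0278, limma). On arrays 1 to 3 its log2 ratio was -0.32, -0.46 and -0.49, and on arrays 4 to 6 it was -0.56, -0.35 and -1.33. As means of 2 spots, the first 5 values lay close together in both strain pairs, and array 6 lay well below them. The single spots lay further apart, at -0.05 and -0.59 on array 1 and at -0.92 and -0.001 on array 2. On array 6 the 2 spots differed by 1.02 (log2), the widest gap between the spots of any permease on any array, against a median gap of 0.37. DIP5 was at 1.35 to 2.75 times background in the mutants and 1.26 to 7.64 times in the wild types. On this scale the mutant channel was the brighter one on 4 of 6 arrays, against none with a positive normalized ratio. These were arrays 1, 2, 3 and 5, on which the median spot of all genes was also brighter in the mutant channel. With median centring of each array in place of loess it was -0.62 but not called (adjusted p = 0.061). From the second spot on its own DIP5 was -0.62 and not called either (adjusted p = 0.0944, limma). Without array 6 the call was kept at a log2 ratio of -0.44, and it was lost without array 1, 2 or 4 (adjusted p of 0.0505 to 0.0675). It averaged -0.39, -0.53 and -0.84 on slides 1, 2 and 3.

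None of the 3 permeases for basic amino acids was called. HIP1, whose substrate histidine was absent from the dropout medium, had log2 ratios of -0.19, -0.45 and 0.82 in YJR13 over YJR12 and of -0.94, -0.26 and 0.43 in YJR6 over MGD353-46D (mean -0.10 ± 0.23, SE, adjusted p = 0.791). Arrays 3 and 6 were the 2 on which it was higher in the mutant. LYP1 was higher in the mutant on 5 of 6 arrays, at 0.45, 0.12 and 0.16 for YJR13 over YJR12 and 0.28, 0.27 and -0.68 for YJR6 over MGD353-46D (mean 0.10 ± 0.16, SE, adjusted p = 0.687). Array 6 alone was negative. CAN1 had log2 ratios of 0.03, 0.13 and -0.69 in YJR13 over YJR12 and of -0.08, -1.19 and -0.12 in YJR6 over MGD353-46D (mean -0.32 ± 0.19, SE, adjusted p = 0.253). On the 4 arrays other than 3 and 5 it lay within 0.133 of 0. The spots of CAN1 were at 15.3 to 25.4 times background in the mutants and 10.8 to 99.3 times in the wild types, and its value changed with the normalization: median centring gave -0.98 (adjusted p = 0.0307) and no background correction gave -0.49 (adjusted p = 0.0434).

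By strain pair, none of the 10 permeases was called in YJR13 over YJR12 (limma, adjusted p of 0.05), against 1.25% of all genes, and 1 of 10, BAP2, had an unadjusted p under 0.05. In YJR6 over MGD353-46D, 2 of 10 were called, both lower, AGP1 (-1.71 ± 0.31, SE, adjusted p = 0.0225) and BAP3, against 8.2% of all genes called lower. This call of AGP1 was lost without array 4, 5 or 6 (adjusted p = 0.104, 0.0591 and 0.0611). BAP2 had nearly the same mean in both, 2.14 ± 0.72 for YJR13 and 1.96 ± 0.72 for YJR6 (SE). It was called in neither (adjusted p = 0.162 and 0.105, limma). Each mean was of 3 arrays, but the SE of a pair rested on a spread estimated over all 6 arrays. TAT1 was at -0.80 ± 0.46 for YJR13 and -1.44 ± 0.46 for YJR6, and DIP5 at -0.43 ± 0.21 for YJR13 and -0.75 ± 0.21 for YJR6, none of them called. The log2 ratio was the lower one in the YJR6 pair for 8 of 10 permeases, against 3061 of 6256 genes. The difference between the pairs was not called for any of the 10 (limma), against 0.0639% of all genes, and 1 of 10, BAP3, had an unadjusted p under 0.05. Over the 10 genes the means of the pairs correlated at r = 0.88, and over all genes at 0.80, as a description across genes, which are not replicates.

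**Figure D3:**
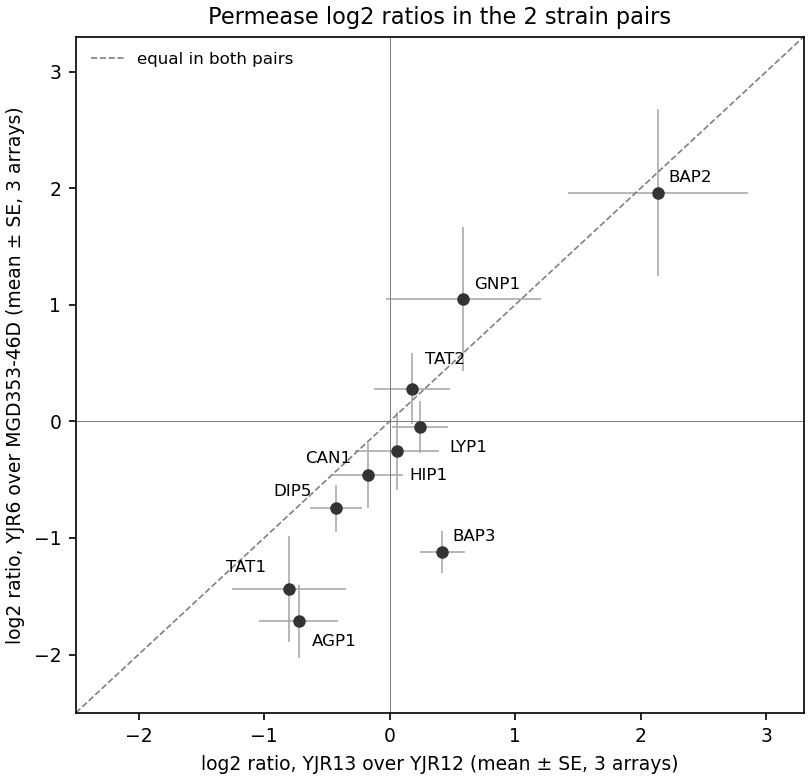
Mean log2 ratio over 3 arrays of each permease in YJR13 over YJR12 (horizontal axis) and in YJR6 over MGD353-46D (vertical axis), with a dashed line where both are equal. Bars are ± SE of limma, whose estimate of the spread is shared by both pairs. BAP2 lies near the line at 2.14 and 1.96. BAP3 lies far below the line, at 0.42 and -1.12.

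A list of 10 other amino acid permeases of the plasma membrane was set beside the family. GAP1, the general amino acid permease, was down regulated: its log2 ratio was -1.75, -1.67 and -0.75 in YJR13 over YJR12 and -2.13, -3.45 and -0.71 in YJR6 over MGD353-46D (mean -1.74 ± 0.35, SE, adjusted p = 0.015), and it kept its call without any single array. SAM3, which carries S-adenosylmethionine, was higher on all 6 arrays (1.09 ± 0.23, SE, adjusted p = 0.0162), with its call lost without array 2. MUP3, a methionine permease of low affinity (0.80 ± 0.21, SE, adjusted p = 0.0301), and AGP3 (0.35 ± 0.10, SE, adjusted p = 0.0446) were called higher too. AGP3 was dim, at 1.141 to 1.458 times background in the mutants and 1.039 to 1.285 times in the wild types. The call of MUP3 was lost without array 1, 2, 4 or 6, and that of AGP3 whichever array was left out. So 3 of these 10 genes were called higher, against 14.2% of all genes, and 1 lower, against 12.9%. Their median log2 ratio was 0.24. The family had 1 gene called higher, BAP2, and 3 called lower, so each set held calls in both directions. At these rates among all genes, 1 call in a direction does not set a list of 10 apart. The calls are therefore not read as a trait shared by the sets.

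Among 14 genes of the amino acid sensor pathway, 2 were called higher, close to the 14.2% of all genes called so, and none lower, against 12.9% (median 0.28). The sensor gene SSY1 itself was at 0.28 ± 0.20 (SE, adjusted p = 0.328), higher on 4 of 6 arrays. STP1, which encodes a transcription factor released by the sensor, was up regulated on all 6 arrays, at 0.49, 0.95 and 0.16 for YJR13 over YJR12 and 0.72, 0.84 and 1.08 for YJR6 over MGD353-46D (mean 0.71 ± 0.14, SE, adjusted p = 0.0128). ASI2, whose product with Asi1 and Asi3 keeps unprocessed Stp1 and Stp2 from acting in the nucleus, was higher as well (0.50 ± 0.10, SE, adjusted p = 0.0146). Its partner genes were not called, ASI1 at -0.16 (adjusted p = 0.373, limma) and ASI3 at 1.56 (adjusted p = 0.0882), with arrays from -1.59 to 2.88. PTR3 (0.44), SSY5 (0.16) and STP2 (0.58) were not called either. These uncalled genes were named with their values known.

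Of 14 genes for the exit of permeases from the endoplasmic reticulum and for their ubiquitination and endocytosis, 5 were called higher, against 14.2% of all genes, and none lower, against 12.9% (median 0.15). Most genes of this list encode adaptors that direct the ubiquitin ligase Rsp5 to membrane proteins, as do the 5 called. The adaptor genes BUL1 (-0.27), BUL2 (-0.18), LDB19 (-0.05), ROD1 (-0.05), ALY1 (0.15) and ART5 (0.15) were not called. CSR2 had log2 ratios of 2.99, 3.05 and 0.33 in YJR13 over YJR12 and of 5.53, 2.71 and 3.92 in YJR6 over MGD353-46D (mean 3.09 ± 0.58, SE, adjusted p = 0.0121), with array 3 far below the others. ECM21, its paralog, was at 0.98, 1.24 and 0.85 for YJR13 over YJR12 and 0.99, 0.83 and 0.27 for YJR6 over MGD353-46D (mean 0.86 ± 0.13, SE, adjusted p = 0.00664). Both kept their call without any single array. ALY2 (0.60 ± 0.16, SE, adjusted p = 0.0299) and ART10 (0.54 ± 0.15, SE, adjusted p = 0.0393) were higher on all 6 arrays, but each was called without 1 of the 6 arrays only, array 3 for ALY2 and array 5 for ART10. The last of the 5, ROG3 (0.72 ± 0.20, SE, adjusted p = 0.0397), was called without array 5 only. SHR3, the chaperone that lets permeases leave the endoplasmic reticulum, was at -0.10 ± 0.12 (SE, adjusted p = 0.565), and this gene, ROG3 and the uncalled adaptors were chosen for naming with their values known.

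Among 14 transporters of amino acids at the vacuole membrane, 1 was called higher, against 14.2% of all genes, and 3 lower, against 12.9% (median -0.18). AVT3, which exports neutral amino acids from the vacuole, was higher (0.64 ± 0.13, SE, adjusted p = 0.0135). VBA1 (-0.84 ± 0.19, adjusted p = 0.021), YPQ2 (-0.72 ± 0.17, adjusted p = 0.0234) and YPQ1 (-0.88 ± 0.23, adjusted p = 0.0323), which carry basic amino acids at that membrane, were lower on all 6 arrays. VBA1 lost its call without array 4 or 6, YPQ2 without array 1, 4, 5 or 6 and YPQ1 without array 1, 2 or 5. YPQ2 was dim, at 1.214 to 1.451 times background in the mutants and 1.131 to 2.851 times in the wild types. Other carriers of basic amino acids in that list, named with their values known, were not called: RTC2 was at 1.06 (adjusted p = 0.0689), VBA2 at 0.13, VBA3 at -0.04 and AVT4 at -0.19. None of 8 transcription factor genes of nitrogen and amino acid metabolism was called (limma), with 1 higher and 2 lower at an unadjusted p of 0.05.

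**Figure D4:**
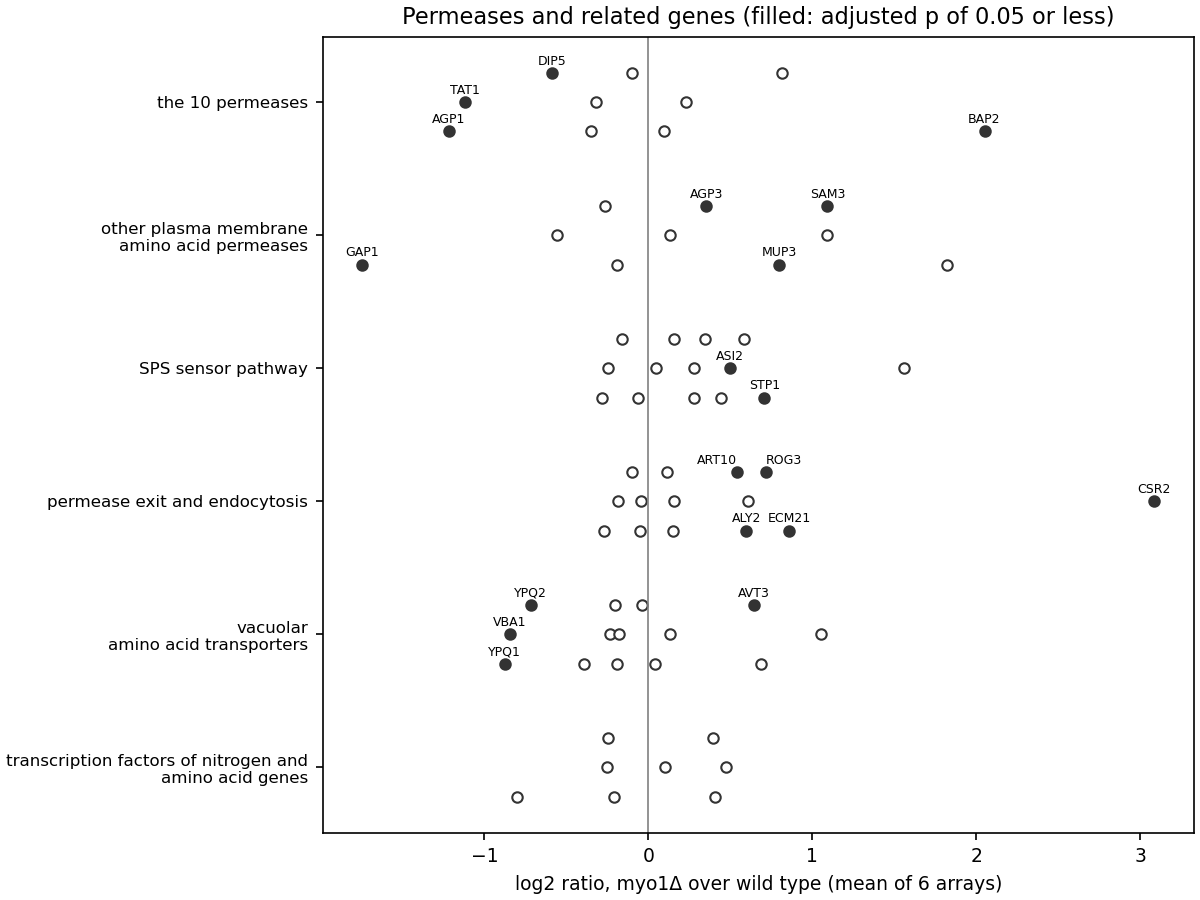
Mean log2 ratio of myo1Δ over wild type over 6 arrays (horizontal axis) of the 10 permeases and of 5 related gene lists, 1 point a gene, spread vertically only for legibility. Filled and named points passed an adjusted p of 0.05. The family, the other permeases and the vacuolar transporters have filled points on both sides of 0, and those of the sensor pathway and of permease exit and endocytosis lie above 0.

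The genes next to the permeases on their chromosomes were read for comparison. GIN4, a kinase of the bud neck that lies beside GNP1, was down regulated on all 6 arrays (-0.95 ± 0.17, SE, adjusted p = 0.00986). KCC4, its paralog beside AGP1, was at -0.51 ± 0.16 (SE, adjusted p = 0.0484), and DIM1, an rRNA methyltransferase gene beside DIP5, at -0.66 ± 0.16 (SE, adjusted p = 0.0239). GIN4 and GNP1 differed in sign on 5 of 6 arrays. KCC4 lost its call without any array but array 3, and DIM1 without array 1, 2, 4 or 5. The other neighbours on the array, among them RPC11 and HEM12 beside BAP3, DIS3 beside TAT2, TDH3 beside HIP1 and NPR2 beside CAN1, were not called.

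The calls of the family were near the threshold, and single arrays decided several of them. Leaving out 1 array gave 0 to 5 called permeases: none without array 1, AGP1 alone without array 2 or 4, and AGP1, GNP1, BAP2, TAT1 and DIP5 without array 3. With the dye in the model 2 were called, AGP1 and BAP2, and with the slide as a fixed block BAP2 alone. The direction of these 4 genes did not change under any of the settings tried: AGP1 ranged between -1.49 and -0.997, BAP2 between 1.58 and 2.46, TAT1 between -1.52 and -0.66 and DIP5 between -0.85 and -0.38.

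**Figure D5:**
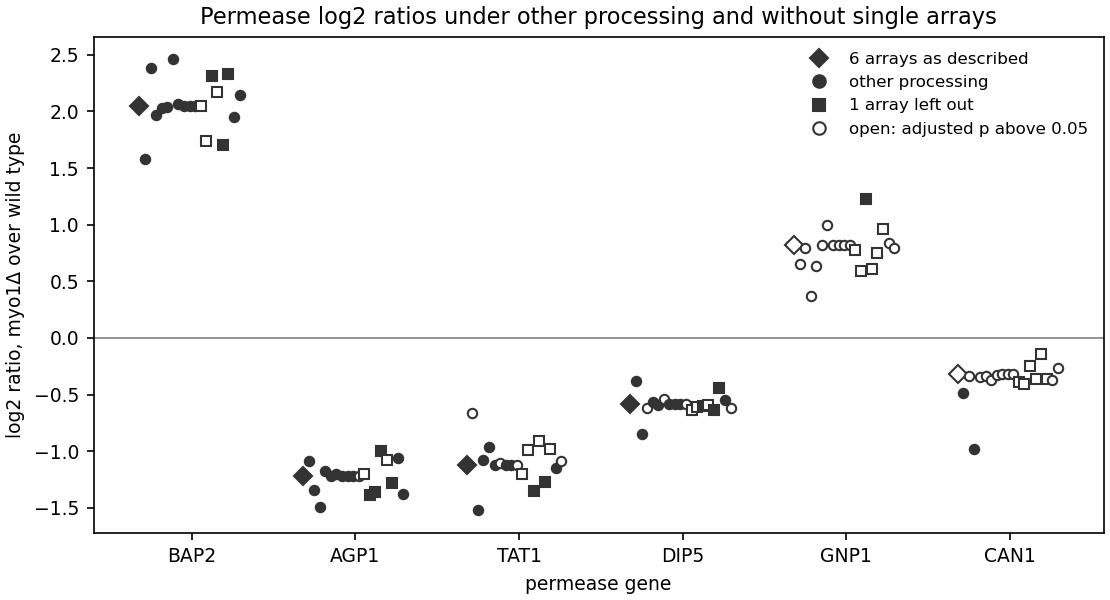
Log2 ratio of myo1Δ over wild type (vertical axis) of 6 permeases as described (diamonds), under other processing (circles) and with 1 array left out (squares), filled where the adjusted p was under 0.05. BAP2, AGP1, TAT1 and DIP5 keep their sign throughout while many of their points are open. GNP1 is called only without array 3, and CAN1 only with median centring or without background correction.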

How the data were processed

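Spots were quantified by the authors with ImaGene, version 6.0.0 per the file headers, and the deposited files hold spot and local background intensities. The deposited log2 ratios (Cy5 over Cy3), made by the authors with limma, were used as an alternative. Probe positions and the genome build are not given in the sources used here. Intensities were corrected by normexp (offset 50) and normalized by loess within arrays in R 4.3.3 with limma 3.58.1. Poor spots (flag 3) were left out, control spots had no weight, and spots of a gene were averaged. Channel levels were loess values equalized with Aquantile. Log2 ratios were fitted with lmFit and eBayes over 6 arrays, or with 1 coefficient per strain pair, with Benjamini-Hochberg adjustment over all genes, after a test on simulated data. Dyes followed the labels. A scan name shared by arrays 1 and 2 gives the dye order of array 2, and MYO1 was lower on array 1 as labelled. All 120 mutant and 120 wild type spot values of the permeases exceeded the 95th percentile of negative control spots. The number of arrays limits the precision. The text names all 10 permeases, MYO1, GAP1, SSY1, up to 4 called genes per list and direction by smallest p, and chromosomal neighbours. Members and lists were chosen with earlier results of these data known.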

Additional observations from a re-analysis of the deposited data

Results flagged for a closer look

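On array 6, DIP5 (-1.33) and LYP1 (-0.68) lay apart from their values on the other 5 arrays by more than Dixon's 95% critical value, in both cases below them. Chance sets about 1 in 20 such groups of 6 apart. For BAP3, all 3 arrays of YJR13 over YJR12 were positive and all 3 of YJR6 over MGD353-46D negative, a difference between the pairs of 1.54 that did not pass the adjusted test (adjusted p = 0.554, limma).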

How the results depend on the processing

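The 4 calls over 6 arrays became 2 with the dye in the model, 1 with the slide as a fixed block, 0 at an adjusted p of 0.01, and 0 to 5 with 1 array left out. In the YJR13 pair 0 calls became 1 with an offset of 0 and 1 with median normalization. In the YJR6 pair 2 calls became 4 with an offset of 0, 5 with median normalization, 0 with scaling between arrays, 0 with the slide as a fixed block, and 0 to 2 with 1 array left out. No pair difference was called under any setting. Signs turned only for values that were not called. HIP1 was 0.00748 over 6 arrays with scaling, and -0.00253 and -0.0244 in the YJR13 pair with the dye in the model and with the slide as a random block. With the slide as a fixed block, GNP1 was -0.72 and TAT2 -0.23 in the YJR13 pair, LYP1 was 0.16 in the YJR6 pair, and the pair differences of BAP2, LYP1 and CAN1 were -0.70, -0.12 and -0.61. With median normalization the pair differences of GNP1 and TAT2 were 0.34 and 0.29, with scaling that of TAT2 was 0.0196, and with no background correction that of BAP2 was -0.0263. With 1 array left out, HIP1 ranged between -0.28 and 0.0712 over 6 arrays. In the YJR13 pair GNP1 ranged between -0.0879 and 1.48, TAT2 between -0.0211 and 0.34, HIP1 between -0.32 and 0.32, and CAN1 between -0.33 and 0.0825. In the YJR6 pair HIP1 ranged between -0.60 and 0.0859 and LYP1 between -0.21 and 0.27. The pair differences ranged between -1.14 and 0.43 for GNP1, -0.55 and 1.08 for BAP2, -0.55 and 0.16 for TAT2, -0.0633 and 0.66 for HIP1, -0.0323 and 0.45 for LYP1, and -0.0766 and 0.55 for CAN1. The causes were not tested.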
